A study of Mus musculus with 10 samples.

Results

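A set of 9 genes of the calcium-calmodulin pathway was examined among the 10767 genes of a messenger RNA table of sorted dendritic cells (DCs). They were taken by gene symbol, all 9 were listed, and they are the calmodulin genes Calm2 and Calm3, the calcium entry genes Stim1, Stim2, Orai1 and Orai3, and the kinase genes Camkk2, Camk2d and Camk2g. The study compared splenic CD8+ DCs of mice with and without Ppef2, a phosphatase with EF-hand domains for calcium and a site that binds calmodulin. The question addressed here was whether the transcripts of calmodulin, of calcium entry and of the calmodulin kinases differed between the genotypes.

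The Ppef2+/+ group and the Ppef2-/- group held 5 libraries each, and each library came from the pooled cells of 3 mice. The cells were sorted from untreated mice as CD11c+MHCII+CD8+CD11b-. The Ppef2-/- mice carry a knock-out-first allele with a gene trap and lacZ reporter between exons 4 and 5 of Ppef2 and loxP sites around exon 5. The allele was made in JM8A3.N1 embryonic stem cells, and chimeric mice were crossed with C57BL/6 mice. No Cre is part of this comparison, and Ppef2 is trapped in every cell of these mice. Mice of both genotypes were matched for sex and age and were 8 to 13 weeks old. Sort numbers 1 to 5, each for 1 Ppef2+/+ and 1 Ppef2-/- library, were assigned by sample order. The deposited values of each pair mirrored each other. The pool of 3 mice is the replicate, so the spread between single mice was not measured. In a bulk sample, fewer cells with a transcript and less transcript per cell cannot be told apart.

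Calmodulin is a small protein that changes shape when its EF-hands take up calcium and then binds enzymes and scaffolds. In immune cells, a major route for calcium is store-operated entry. STIM proteins sense falling calcium in the endoplasmic reticulum and open ORAI channels in the plasma membrane. Calcium-loaded calmodulin switches on the phosphatase calcineurin and the calmodulin kinases. CaMKK2 phosphorylates other kinases (CaMKI, CaMKIV and AMPK), while CaMKII, built from subunits such as those of Camk2d and Camk2g, phosphorylates many targets and can hold its active state through autophosphorylation.

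The calmodulin transcripts are the case in which reads of different genes could be mistaken for each other, because Calm2 and Calm3 encode the same protein of 149 residues. Over the 450 coding bases, 372 bases are identical between Calm2 and Calm3. The coding bases 61 to 110 are shown because they are as long as 1 read of this study (50 bp) and lie in the region of the first calcium-binding loop. They were taken from the GENCODE M21 transcripts, which are on GRCm38 (mm10), and capitals mark the 8 positions at which Calm2 and Calm3 differ.
Calm2: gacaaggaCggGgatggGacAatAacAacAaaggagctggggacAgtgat
Calm3: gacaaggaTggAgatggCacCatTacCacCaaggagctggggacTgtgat
No 50-base window of Calm2 was found unchanged in Calm3, and none of Calm3 in Calm2. Of 1156 such windows of Calm2, 147 (12.7%) also occur in 1 of 3 processed pseudogenes (Gm14480, Gm15720 and Gm7308). Of 2241 windows of Calm3, 62 (2.77%) also occur in the processed pseudogene Gm5881. Reads from those windows are uncertain in the counts. For the other 7 genes no window was shared with another gene.

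The values in the table are read counts that the authors normalized for depth with DESeq2. In the deposited form the mean of each sort had been taken out of every gene, so that the libraries of a sort mirror each other around the gene mean. Genotype means and differences within a sort are untouched by this step, while the spread of the libraries is not. Whole reads could be calculated back for all 9 genes, and levels of single libraries are given below as normalized counts with the sort means put back. Over the 9627 genes with reads, the Ppef2+/+ libraries held 1396295 to 2273524 reads and the Ppef2-/- libraries 1508367 to 4409545. The Ppef2-/- library was the deeper of its pair in sorts 1, 2 and 3 (2.92, 2.31 and 1.6 times the reads) and the shallower in sorts 4 and 5 (0.885 and 0.730 times).

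Ppef2 itself checked the labels. It lies on chromosome 5, as do Stim2, Orai1 and Camkk2, whose starts are 38.2, 30.8 and 30.5 Mb away. With sorts 1 to 5 in order, its reads numbered 212, 145, 95, 136 and 228 for Ppef2+/+ and 7, 8, 1, 0 and 2 for Ppef2-/-. All 17 cDC1 markers looked for, among them Xcr1, Clec9a, Irf8 and Batf3, were in the table. Of the markers of other cells, 7 of 8 for T cells, 6 of 8 for B cells and 4 of 4 for NK cells were not among the genes analysed here. Other lists were present. With sort means put back, 7 of 8 macrophage and monocyte markers (Lyz2 among them) summed to 1079 to 1337 normalized counts in Ppef2+/+ and 1087 to 1324 in Ppef2-/- libraries, and 7 of 8 cDC2 markers to 738 to 1434 and 794 to 1246. Sums of the 8 pDC markers were 1439 to 1880 and 1293 to 1638, lower in Ppef2-/- in 5 of 5 sorts, and those of 11 pancreatic enzymes 3.01 to 234 and 4.73 to 1035. The genotypes overlapped for each of these sums, and the part of these lists in the values below was not tested.

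No difference between the genotypes was called for any of the 9 genes in limma (two-sided, Benjamini-Hochberg adjustment over 10767 genes). Without a term for the sort, as in the one-way model of the study, 0 of 9 had an adjusted p under 0.05 (0.277 for Stim2 to 0.959 for Calm2), compared to 0.957% of all genes. When the sort entered as a block, adjusted p-values were 0.995 to 0.999, and 0.00929% of all genes were called. At an unadjusted p under 0.05, 1 of 9 genes (Stim2) passed without the block and 17.5% of all genes did. With the block 0 of 9 passed, compared to 4.29% of all genes. Limma's voom on the whole reads with the same block, adjusted over the 9627 genes with reads, also gave 0 of 9 by either measure. Of those 9627 genes, 2 had an adjusted p and 440 an unadjusted p under 0.05 in this fit. By the thresholds of the study, an unadjusted p of 0.01 or less together with at least a 2-fold change of the means, 0 of 9 genes and 0.214% of all genes were called. With sort means put back, the genotypes overlapped for each of the 9 genes, while 0.540% of the 9627 genes with reads did not overlap. In the means, 5 genes were higher and 4 lower in Ppef2-/- libraries. The median log2 fold change was 0.01 over the 9 genes and 0.00089 over all genes, and the median of its absolute size was 0.037 and 0.071.

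The intervals say how large a difference these libraries could have hidden. With the sort as a block, the 95% intervals of the log2 fold change lay between -0.50 and 0.29 for all 9 genes, so a change of 2-fold lay outside each of them. The narrowest was that of Calm3, 0.900 to 1.05 on the fold scale. The widest was that of Camkk2, 0.708 to 1.13. In the plot of the intervals, leaving out the block shortens them, because the mirrored values give too small a spread.

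**Figure D1:**
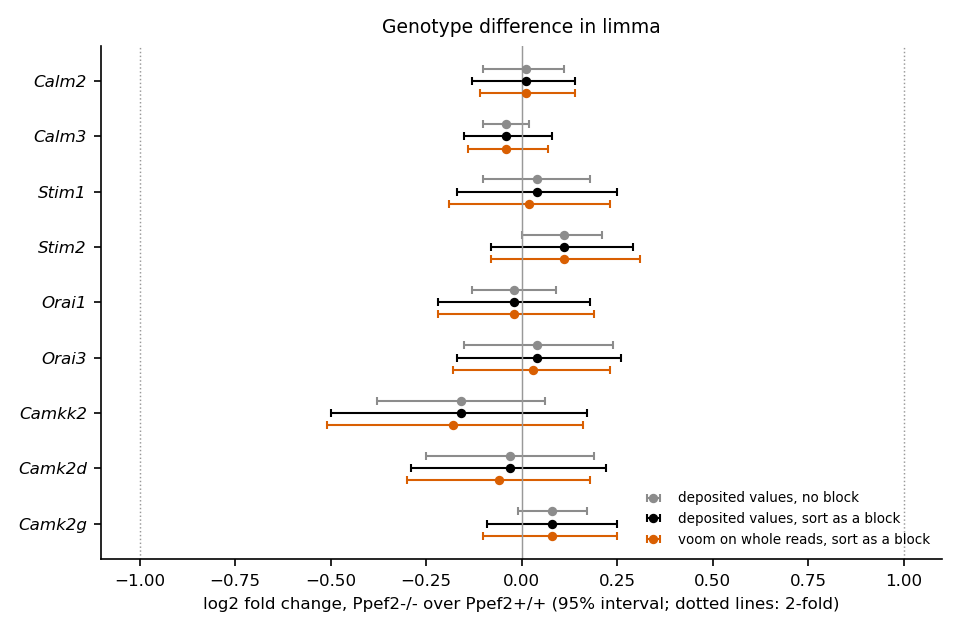
Log2 fold change of each gene, Ppef2-/- over Ppef2+/+ (x axis, points with 95% intervals), for 3 fits of limma on 5 libraries per genotype: deposited values without a block (grey), with the sort as a block (black) and voom on whole reads with the sort as a block (orange). Blocked intervals include 0 for every gene and none reaches the dotted lines at 2-fold.

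Calm2 lies on the minus strand of chromosome 17 (chr17:87433412-87446935, GRCm38). With sorts 1 to 5 in order, here and for the genes below, Ppef2+/+ held 638, 686, 810, 691 and 729 normalized counts and Ppef2-/- 632, 730, 689, 790 and 730. The groups overlapped almost fully, with means of 711 ± 64.3 and 714 ± 58.5 (SD, n = 5). The ratio of the means was 1.01, and the log2 fold change was 0.01 ± 0.07 (SE, limma with the block, adjusted p = 0.999). The genotype with more Calm2 was not the same in each sort: Ppef2-/- minus Ppef2+/+ was -121 normalized counts in sort 3 and 99.2 in sort 4.

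Calm3 is on the minus strand of chromosome 7 (chr7:16915379-16924114) and was the steadiest of the 9 genes. The Ppef2+/+ libraries held 876, 904, 979, 931 and 973 normalized counts and the Ppef2-/- libraries 920, 860, 911, 926 and 927. The means were 932 ± 44.0 and 909 ± 28.1 (SD, n = 5), which is a coefficient of variation of 4.72% and 3.09%. The log2 fold change was -0.04 ± 0.05 (SE, limma with the block, adjusted p = 0.995), and Ppef2-/- was the lower library in 4 of 5 sorts. The differences within sorts were small in each case, between -7.39% and 4.77% of the gene mean.

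**Figure D2:**
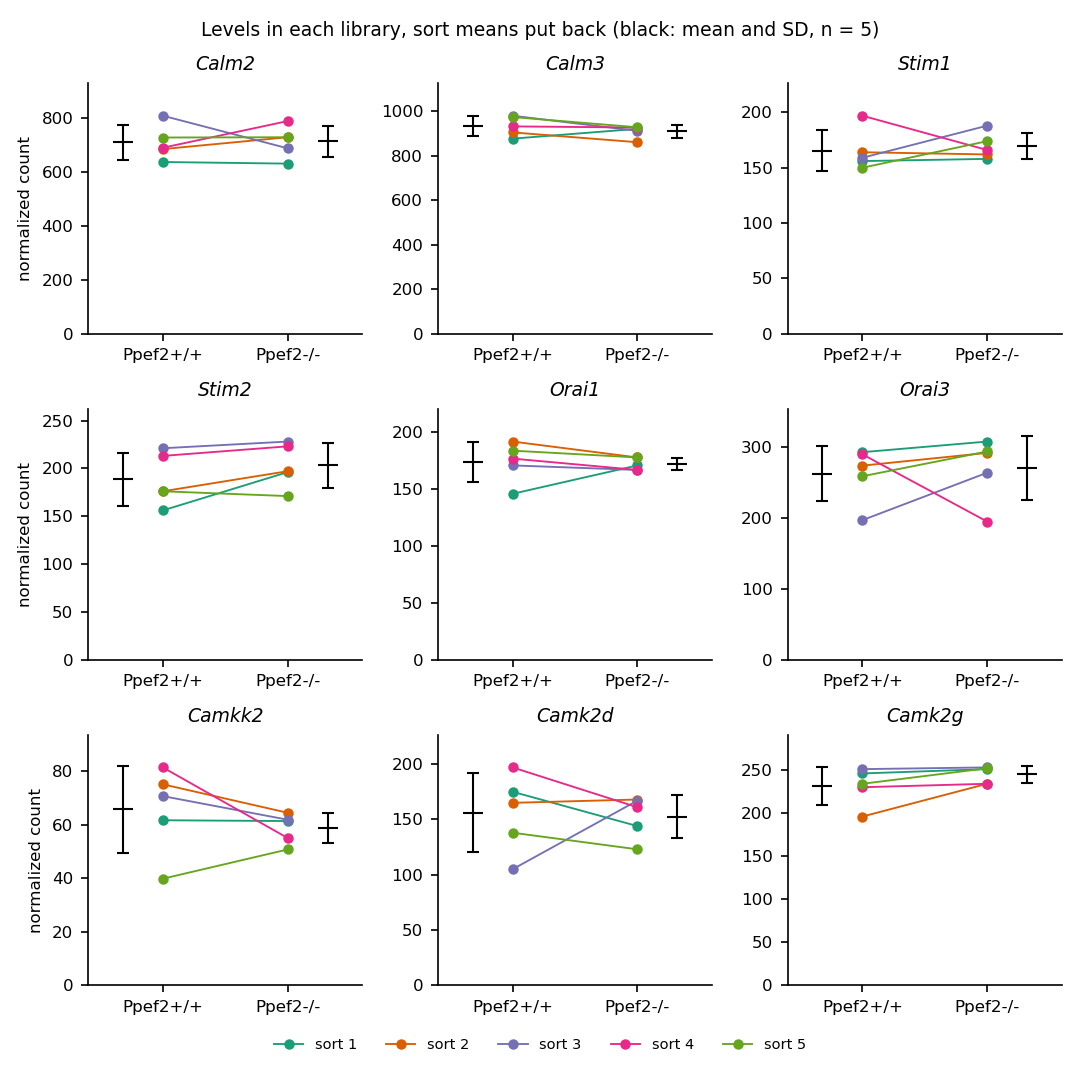
Normalized count (y axis, from 0, sort means put back) of each gene in the 5 Ppef2+/+ and 5 Ppef2-/- libraries. Colours mark the sorts, lines join the libraries of a sort, and black bars are the mean and SD. The genotypes overlap for all 9 genes.

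Stim1 and Stim2, the calcium sensors of the endoplasmic reticulum, lay close together in these cells. Stim1 (chr7:102267806-102437319, plus strand) had 156, 164, 159, 197 and 150 normalized counts in Ppef2+/+ libraries and 158, 162, 188, 166 and 174 in Ppef2-/- libraries. The Ppef2+/+ library of sort 4 stood above the other 4 of its group, and the means were 165 ± 18.3 and 170 ± 12.0 (SD, n = 5). The log2 fold change was 0.04 ± 0.10 (SE, limma with the block, adjusted p = 0.997).

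Stim2 (chr5:53998499-54121057, plus strand) was the only gene of the 9 with an unadjusted p under 0.05 in the fit without the block (limma, unadjusted p of 0.047, adjusted p of 0.277). Its normalized counts were 156, 176, 221, 213 and 176 in Ppef2+/+ and 196, 197, 228, 223 and 171 in Ppef2-/- libraries. Both genotypes were high in sorts 3 and 4 and overlapped, with means of 189 ± 27.6 and 203 ± 23.0 (SD, n = 5). Ppef2-/- was higher in 4 of 5 sorts, by 20.2% of the gene mean in sort 1 down to 3.41% in sort 3, and the difference in sort 5 was -2.60%. With the block, the log2 fold change of 0.11 ± 0.09 (SE) had an unadjusted p of 0.257 and an adjusted p of 0.995 in limma. The exact test that exchanges the genotypes within sorts gave p = 0.125.

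Of the channel genes, Orai1 (chr5:123015074-123030456, plus strand) hardly varied among the Ppef2-/- libraries. Its levels there were 171, 178, 167, 167 and 178 normalized counts, and those of the Ppef2+/+ libraries were 146, 192, 171, 177 and 184. The Ppef2-/- values lay inside the range of the Ppef2+/+ values, and the means were 172 ± 5.56 and 174 ± 17.4 (SD, n = 5). The log2 fold change was -0.02 ± 0.09 (SE, limma with the block, adjusted p = 0.998). Orai1 shares 7 exonic bases with Gm2479 on the opposite strand, and the library kit did not keep the strand.

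Orai3 (chr7:127769815-127775150, plus strand) differed more between libraries than between genotypes. The Ppef2+/+ libraries held 293, 274, 197, 290 and 259 normalized counts, and the Ppef2-/- libraries 308, 292, 264, 195 and 294. In each genotype 1 library was low, that of sort 3 in Ppef2+/+ and that of sort 4 in Ppef2-/-. These libraries had 131 and 185 Orai3 reads. The means were 263 ± 39.2 and 271 ± 45.1 (SD, n = 5) with a log2 fold change of 0.04 ± 0.10 (SE, limma with the block, adjusted p = 0.997). Ppef2-/- was higher in 4 of 5 sorts, but the difference of -35.5% of the gene mean in sort 4 exceeded any of the 4 others in size. Without sort 3, the log2 fold change was -0.04 with the block.

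Camkk2 (chr5:122731170-122779409, minus strand) encodes the kinase that acts on CaMKI, CaMKIV and AMPK and was the weakest of the 9 genes, with 37 to 132 reads per library. Its normalized counts were 61.6, 75.0, 70.6, 81.3 and 39.8 in Ppef2+/+ and 61.3, 64.4, 61.8, 55.0 and 50.7 in Ppef2-/- libraries. The Ppef2+/+ libraries covered a wider range, and all Ppef2-/- values lay inside it. The means were 65.7 ± 16.1 and 58.6 ± 5.65 (SD, n = 5), and the ratio of 0.893 was the one farthest from 1 among the 9 genes. Without sort 4 the log2 fold change of Camkk2 was -0.051 with the block, and that of Orai3, at 0.18, lay farther from 0. The log2 fold change of -0.16 ± 0.16 (SE) had an adjusted p of 0.995 in limma with the block and 0.436 without it. Ppef2-/- was lower in 4 of 5 sorts. The differences ran from -42.4% of the gene mean in sort 4 to -0.484% in sort 1, and that of sort 5 was 17.4%.

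Camk2d (chr3:126596302-126846326, plus strand), for the delta subunit of CaMKII, had the largest swings between sorts. The Ppef2+/+ libraries held 175, 165, 105, 197 and 138 normalized counts, and the Ppef2-/- libraries 144, 168, 167, 161 and 123. The Ppef2+/+ library of sort 3, with 70 reads, was the lowest of all 10. The means were 156 ± 35.4 and 152 ± 19.0 (SD, n = 5). The log2 fold change was -0.03 ± 0.12 (SE, limma with the block, adjusted p = 0.997), and it was -0.19 without sort 3 and 0.04 without sort 4. Within sorts, the difference ran from -23.5% of the gene mean in sort 4 to 39.9% in sort 3.

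Camk2g (chr14:20734875-20794088, minus strand), for the gamma subunit, was the only gene of the 9 that moved the same way in 5 of 5 sorts, which 6.14% of all genes did. Its normalized counts were 246, 196, 251, 230 and 234 in Ppef2+/+ and 251, 234, 253, 234 and 252 in Ppef2-/- libraries. The Ppef2+/+ library of sort 2 was the lowest, and the other 9 libraries lay between 230 and 253. The means were 232 ± 21.5 and 245 ± 10 (SD, n = 5), and 3 of the 5 differences were no larger than 2.03% of the gene mean. The exact test within sorts gave p = 0.062, the smallest that 5 sorts allow. The log2 fold change of 0.08 ± 0.08 (SE) had an unadjusted p of 0.343 and an adjusted p of 0.995 in limma with the block.

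Compared sort by sort, the 9 genes did not move as a group. Ppef2-/- was higher for 6, 5, 5, 3 and 5 of them in sorts 1 to 5. The median difference of the 9 genes was 2.03, 1.84, 0.799, -6.05 and 0.130% of the gene mean. Among the 6898 genes with means between those of Camkk2 and Calm3, 48.1 to 52.3% were higher in Ppef2-/- in each sort. Sort 4 held the lowest differences of Stim1, Orai3, Camkk2 and Camk2d, and sort 3 the highest of Stim1, Orai3 and Camk2d. The 3 differences that stood out most were Camkk2 in sort 4, Orai3 in sort 4 and Camk2d in sort 3. Against the differences of the 6898 genes in the same sort, these lay at the percentiles 1.22, 2.39 and 98.3. Camkk2 has the lowest mean of this range. Counting of reads alone gives its log2 ratio an SD of 0.27, the largest of the 9 genes, compared to 0.07 for Calm3. The part of counting error in these percentiles was not tested.

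**Figure D3:**
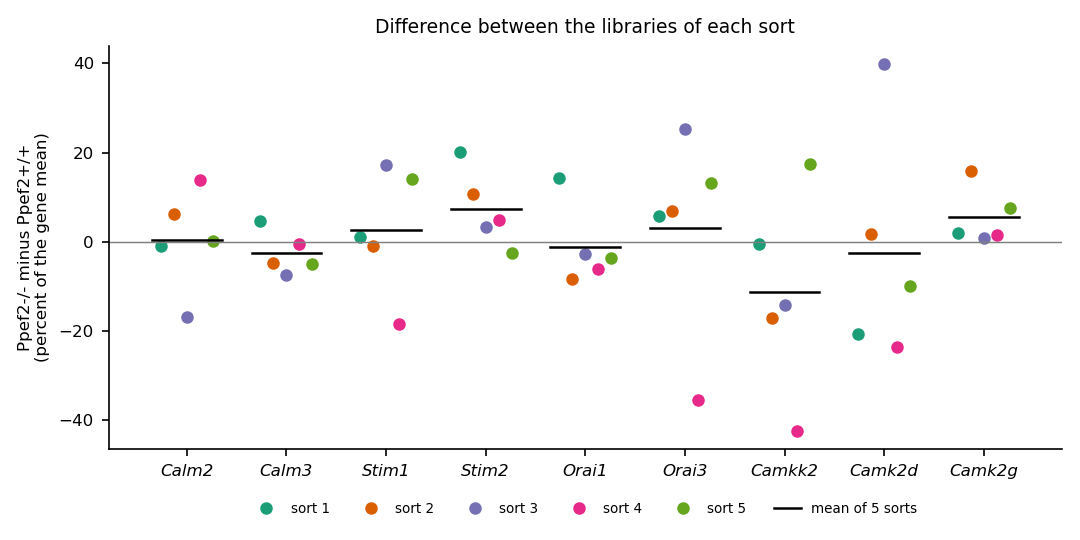
Ppef2-/- minus Ppef2+/+ within each sort (y axis, percent of the gene mean) for the 9 genes. Points are sorts 1 to 5 by colour and black lines are the means of 5 sorts. Points of Calm3 stay between -7.39 and 4.77%, while those of Camk2d run from -23.5 to 39.9%, and Camk2g has all 5 points above 0.

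For Calm3, Stim2, Orai1 and Camk2g, the genotype ratio varied between sorts about as much as counting of reads gives, or less. The SD of the 5 within-sort log2 ratios was 0.07 for Calm3, 0.14 for Stim2, 0.14 for Orai1 and 0.10 for Camk2g, and Poisson counting gives 0.07, 0.15, 0.16 and 0.14 at their read numbers. Stim1 and Camkk2 were a little above counting, by factors of 1.21 and 1.23. Calm2, Orai3 and Camk2d varied beyond it, by factors of 2.01, 2.81 and 2.30. Over 6887 genes with means in the same range the median factor was 1.39, with 0.792 at the 10th percentile and 2.26 at the 90th. Orai3 was at percentile 97.0 of these genes and Camk2d at percentile 91.0. Reads had no molecular identifiers, so the expected value covers counting error only.

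**Figure D4:**
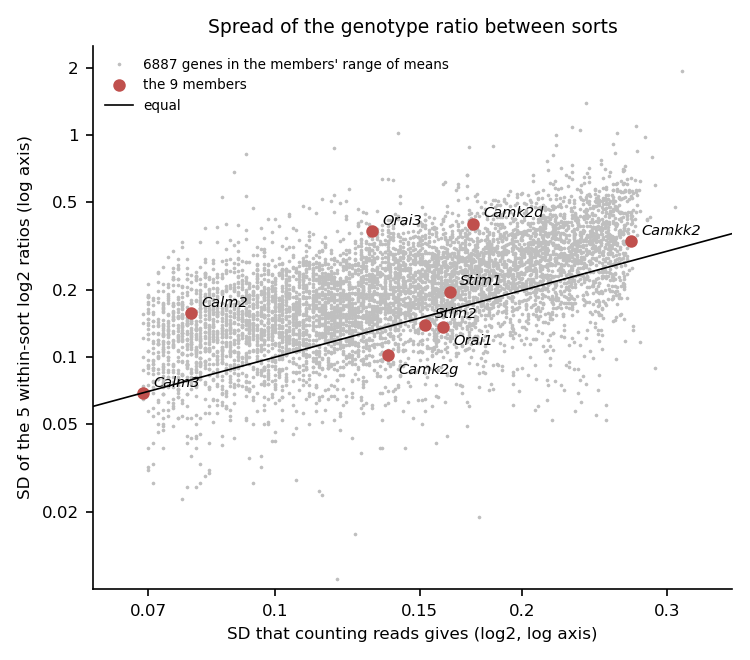
SD of the 5 within-sort log2 ratios (y axis, log axis) against the SD that Poisson counting of the reads gives (x axis, log axis). Red points are the 9 genes, grey points the 6887 genes with means in their range, and the line marks equal values. Orai3 and Camk2d lie far above the line, at 2.81 and 2.30 times the counting value, while Calm3 is on it.

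Levels of different genes can be set side by side only per length, here as normalized counts per kb of exons over both genotypes (mean ± SD, 10 libraries). The order was Calm2 (591 ± 48.1), Calm3 (402 ± 16.2), Orai3 (134 ± 20.1), Orai1 (92.4 ± 6.53), Camk2g (64.3 ± 4.67), Stim1 (41.0 ± 3.62), Stim2 (39.5 ± 5.06), Camk2d (18.2 ± 3.16) and Camkk2 (12.8 ± 2.47). Stim1 and Stim2 could not be ordered, since Stim1 was above Stim2 in 6 of 10 libraries (exact test over 5 sorts, p = 0.312). Camk2d was above Camkk2 in 9 of 10 libraries. In the other 6 steps of the order, the higher gene was higher in 10 of 10 libraries, and those steps and that of Camk2d gave p = 0.062 in the exact test, the smallest possible. Each step was tested on the same values that set the order, so these p-values are a description only. The lengths add up the exons of all RefSeq-matched transcripts. With the longest transcript alone, Camk2d had 27.9 per kb and kept its place.

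Orai3 was the first of 3 channel genes per length and held 39.8 and 41.3% of their summed normalized counts per kb in Ppef2+/+ and Ppef2-/- libraries. Orai2 followed with 32 and 30.8% and Orai1 with 28.2 and 27.9%. With sort means put back, Orai3 was first in 9 of 10 libraries, and Orai2 was first in the Ppef2+/+ library of sort 3. In the CaMKII family, Camk2g held 65.7 and 68.1% and Camk2d 19.3 and 18.5%, followed by Camk2b with 12.3 and 10.9% and Camk2a with 2.60 and 2.53%. These shares depend on the lengths used. With its longest transcript alone, Camk2d had 27.9 instead of 18.2 per kb over both genotypes, still below the 64.3 of Camk2g. Camkk1 and Camkk2 had 13.7 and 13.5 per kb in Ppef2+/+ libraries, a gap far below the SD of either gene. Among the genes of CaMKI, Camk1d with 373 per kb was far above Camk1 with 16.2 per kb in Ppef2+/+ libraries, and Camk4 and Camk1g were not among the genes analysed here. Of the paralogs named here, none had an adjusted p under 0.05 in limma with or without the block.

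**Figure D5:**
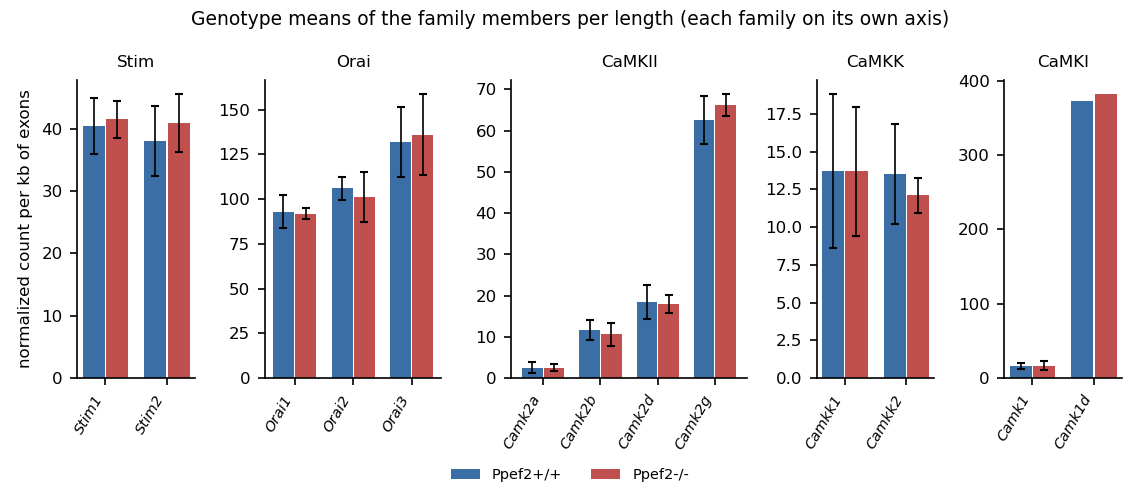
Genotype means of the STIM, ORAI and kinase genes and their paralogs as normalized counts per kb of exons (y axes, each from 0, 1 per family; blue Ppef2+/+, red Ppef2-/-). Bars on the columns are the SD of 5 libraries, which could not be had for Camk1d. The means of Orai3, Camk2g and Camk1d are the highest of their families in both genotypes.

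No shift in the balance within a pair of related genes was detected between the genotypes. The log2 ratio of Calm2 to Calm3 was -0.39 ± 0.07 in Ppef2+/+ and -0.35 ± 0.08 in Ppef2-/- libraries (SD, n = 5). That of Stim1 to Stim2 was -0.19 ± 0.14 and -0.26 ± 0.13, and that of Orai1 to Orai3 was -0.58 ± 0.16 and -0.65 ± 0.17. The ratio of Camk2d to Camk2g showed the largest shift, from -0.58 ± 0.20 to -0.69 ± 0.18, and was higher in Ppef2-/- in 1 of 5 sorts. Its difference was -0.11, and -0.29 without sort 3, the 1 sort that went the other way. Leaving out that sort fixes the exact test within sorts at its smallest p, 0.125 with 4 sorts, so nothing is concluded from it. Exact tests within sorts gave p = 0.562 to 0.688 for the 4 ratios, with an adjusted p of 0.688 for each. These ratios were formed from deposited values, whose spread is too small. With sort means put back the SD of the last ratio was 0.43 in Ppef2+/+ and 0.23 in Ppef2-/- libraries.

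The rest of the pathway was read through 6 lists with 128 genes in the table. Of these, 2 were called in limma without the block and 0 with it, compared to 0.957% and 0.00929% of all genes. At an unadjusted p under 0.05, 14.1% of the 128 genes passed without the block and 3.12% with it, compared to 17.5% and 4.29% of all genes. Both called genes belong to the 33 other EF-hand calcium binders and were lower in Ppef2-/-. Nucb1, a calcium-binding protein of the Golgi, had 898, 862, 935, 852 and 874 normalized counts in Ppef2+/+ and 788, 763, 794, 790 and 764 in Ppef2-/- libraries. The genotypes of Nucb1 did not overlap, compared to the 0.540% of genes with reads given above. Its ratio was 0.882, with an adjusted p of 0.018 in limma without the block and 0.995 with it (unadjusted p = 0.0038), and 0.717 in voom with the block. Capns1, the small regulatory subunit of the calpain proteases, had means of 1142 and 1027 and was lower in 4 of 5 sorts. Its adjusted p in limma was 0.047 without and 0.995 with the block. The median log2 fold change of this list was 0.003.

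In the list of calcium stores, channels and pumps, 0 of 35 genes were called by either fit, and the median log2 fold change was 0.028. The gene with the smallest blocked p was Tpcn1, an endolysosomal cation channel. It had 148 ± 16 normalized counts in Ppef2+/+ and 177 ± 12.4 in Ppef2-/- libraries (SD, n = 5), was higher in 5 of 5 sorts and did not overlap (limma with the block, unadjusted p = 0.024, adjusted p = 0.995). Over the table, 6.14% of genes kept 1 direction in 5 of 5 sorts, and 0.540% of genes with reads did not overlap. Of 102 list genes with reads, 2 did not overlap, Nucb1 and Tpcn1. Next by blocked p came Slc8b1, the mitochondrial sodium-calcium exchanger, with a ratio of 1.06, and the pump gene Atp2a3 with 0.922. They were followed by the mitochondrial uniporter gene Mcu with 1.21 and the ATP-gated channel gene P2rx7 with 0.940. Of 10 other genes in the list of calmodulin and its kinases, 0 were called. The kinase genes Eef2k and Dapk3 of this list had ratios of 1.11 each.

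Downstream of calmodulin, 0 of 15 genes of calcineurin and NFAT were called. Ppp3ca, a catalytic subunit of calcineurin with 471 ± 45.7 and 456 ± 29.8 normalized counts, had a ratio of 0.968, and Ppp3cc had 0.770 at means of 30.1 and 23.2. Ratios were 0.912 for Chp1, 1.16 for Nfatc2ip and 1.02 for Csnk1a1. Of 26 calmodulin-binding proteins 0 were called, and Iqgap2, a scaffold of the actin cytoskeleton, had a ratio of 0.909 and an unadjusted p of 0.044 with the block (adjusted p = 0.995, limma). Ratios were 0.879 for Itpkb, 0.922 for Add3, 1.21 for Iqcb1 and 1.10 for Marcksl1. Of 13 genes around CaMKK2 (Camk1, AMPK subunits, the AMPK kinase gene Stk11 and genes further downstream) 0 were called. Prkaa1, a catalytic subunit of AMPK, had a ratio of 1.05, the autophagy kinase gene Ulk1 had 0.887, and the CREB coactivator genes Crtc1, Crtc2 and Crtc3 had 1.05, 1.04 and 1.07.

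For the 3 genes with the largest spread of within-sort differences, the genes with the most similar 5 differences were looked up among the 6859 genes with a mean of at least 100. They were Ppp1r37 and Spns1 for Camk2d (root mean square distance 7.12 and 7.91% of the gene mean), Tmem259 and Mrps24 for Orai3 (3.88 and 5.31%) and Plekhg2 and Marveld1 for Camkk2 (6.64 and 7.40%). The median distance of all 6859 genes was 26.2, 24.5 and 26.0%. Over 5 sorts this likeness is a description only.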

How the data were processed

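Messenger RNA of splenic CD8+ DCs was sequenced as 50 bp single-end reads from poly-A libraries without strand information. Per the study's methods, the authors aligned reads to mm10 with HISAT (the submitters' processing notes name TopHat2 2.0.3), counted them per RefSeq gene in Partek 6.6, normalized them with DESeq2, set values below 1 to 1 and removed genes with means under 10 in both genotypes. The deposited values are this normalized count signal, and 0 columns were left out. Both libraries of a sort sum to the same value in every sort in 10721 genes without a value at the floor, a step that was not given in the sources used here.

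Whole reads were calculated back for the 9627 genes with all values under 1000, as whole multiples of the value of 1 read plus the amount taken from the sort. On simulated data 9475 of 9475 such genes came back as drawn. The libraries were paired by sample order, and the deposited values of each pair mirrored each other. With sort means put back, deviations of same-sort libraries correlated across genes with r = 0.30, 0.14, 0.25, 0.27 and 0.04 in sorts 1 to 5.

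Limma 3.58.1 in R 4.3.3 was used on log2(value + 1) with eBayes and a trend, two-sided, adjusted by Benjamini-Hochberg over 10767 genes. The main fit had no block, like the study's one-way model, and the sort was a block beside it. In simulated data for this comparison (10679 genes, 200 changed 2-fold), 199 changed genes were recovered by either fit, along with 268 unchanged genes without and 12 with the block. Recovery of smaller changes, such as those of the 9 genes, was not tested. Exact tests exchanged genotypes within sorts. Alternatives were pseudocounts 0.5 and 10, a mean of at least 50, other scalings, no trend, relative differences, sort means put back, and each library or sort left out. Voom on whole reads, and the repeats of within-sort differences and ratios with sort means put back, were chosen after seeing the data. The members, lists and tests were chosen with earlier results of these data known. Genes named are the 9 genes, Ppef2, the paralogs, list genes with an adjusted p under 0.05 and up to 5 per list with the smallest blocked p, and the 2 most similar genes of 3 members. The markers Xcr1, Clec9a, Irf8 and Batf3 stand for their list. One gene of the lists is not reported here and was left out of their counts. Exon lengths, coordinates and coding sequences came from GENCODE M21.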

Additional observations from a re-analysis of the deposited data

Results flagged for a closer look

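In 38 groups of 5 values (9 genes, Ppef2, 5 paralogs and 4 ratios in each genotype, sort means put back), 3 had a library far from the other 4 by Dixon's criterion, and chance gives about 1 in 20. The Ppef2-/- library of sort 2 had 860 normalized counts of Calm3 (median 920). The Ppef2+/+ library of sort 4 had 197 of Stim1 (median 159) and 456 of Orai2 (median 408).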

How the results depend on the processing

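None of the 9 genes reached an adjusted p under 0.05 in any of the 28 fits. Calm3, Stim2, Camkk2 and Camk2g kept the direction of their log2 fold change in all of them. With the block and single sorts left out, it ran from -0.064 to -0.02 for Calm3, from 0.059 to 0.14 for Stim2, from -0.27 to -0.051 for Camkk2 and from 0.042 to 0.096 for Camk2g. The direction of the other 5 genes turned only where a library or a sort was left out. With the replicate block, the log2 fold change was -0.013 without sort 2 and -0.041 without sort 4 for Calm2, -0.016 without sort 3 and -0.004 without sort 5 for Stim1, 0.0075 without sort 2 for Orai1, -0.035 without sort 3 for Orai3, and 0.032 without sort 1 and 0.042 without sort 4 for Camk2d. Without single libraries and with no block it ran from -0.017 to 0.04 for Calm2 and from -0.12 to 0.0042 for Camk2d. With a sort left out, the mean within-sort difference ran from -2.85 to 4.87% for Calm2, from -1.08 to 7.86% for Stim1, from -5.15 to 0.52% for Orai1, from -2.37 to 12.8% for Orai3 and from -13.01 to 2.83% for Camk2d, and the difference in the log2 ratio ran from -0.19 to 0.023 for Orai1 to Orai3, from -0.29 to -0.052 for Camk2d to Camk2g, from -0.15 to -0.0008 for Stim1 to Stim2 and from 0.0036 to 0.09 for Calm2 to Calm3. The count of genes with 1 direction in all sorts was 1 to 3. At an unadjusted p under 0.05, 1 gene (Stim2) passed without a block. The count was 0 with the replicate block, after scaling to the same median log-ratio, with sort means put back, in voom, and without a library of sorts 1 to 4. It was 1 without a library of sort 5.

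Over the whole table, 103 genes were called. The replicate block gave 1, and so did relative differences within the sort and sort means put back without the block. Sort means put back with the block gave 2, voom gave 2 with the block and 1 without it, and eBayes without a trend gave 193. Without single libraries the count was 1 to 23, and without single sorts, with the block, 1 to 4. The 2 list genes called without the block were 0 with the replicate block. No call on the 9 genes changed with it. Depth limits Camkk2 most, with 37 reads in its shallowest library.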
